A study of Mus musculus with 18 samples.

Results

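Natural killer (NK) cells and other cytotoxic innate lymphocytes were examined in single cells of mouse dorsal dermis. A cell was chosen when it had 850 to 7800 detected genes, under 13% mitochondrial UMIs (unique molecular identifiers, each marking 1 captured RNA), and a UMI of at least 2 of the 5 genes Ncr1, Klrb1c, Klre1, Gzma and Prf1. It also needed a UMI of Nkg7, no UMI of Cd3e, Cd3g or Pdgfra, and at most 2 UMIs of C1qa. This left 79 cells of 16877 within the limits on genes and mitochondrial UMIs (0.468%), out of 23990 barcodes, and 2.43% of the 3257 cells within the limits that had a UMI of Ptprc, the pan-leukocyte gene. They are called NK cells here. The same libraries gave 94 T cells (a UMI of at least 2 of Cd3e, Cd3g and Cd3d, with the same limits on C1qa and Pdgfra, and 104 without those limits), 2082 macrophages (at least 3 UMIs of C1qa) and 12133 fibroblasts (a UMI of Pdgfra and none of Ptprc).

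The mice were adult wild-type C57BL/6J males in a 12:12 light-dark cycle, with hair follicles in telogen, the resting phase of the hair cycle. None carried a transgene or received an agent, and no cell type was enriched beyond a sort for live cells after collagenase digestion of a skin punch. Times are given as zeitgeber time (ZT), in hours after the lights went on. In all, 3 mice, 1 library each, were collected at each of ZT2, ZT6, ZT10, ZT14, ZT18 and ZT22. The libraries held between 318 and 2322 barcodes, between 4850221 and 40827442 UMIs, and a median of 811 cells within the limits. That the replicates are separate mice comes from the study's design, and 1 library was made per mouse. The summed depth of the NK cells was 698864 UMIs, with a median of 7057 per cell, against 6968 in T cells, 12238 in macrophages and 22132 in fibroblasts.

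NK cells kill infected or transformed cells by releasing granules that hold perforin and granzymes, and they secrete interferon gamma and chemokines. Unlike T cells they carry no rearranged antigen receptor and no CD3 complex at the surface. Their activity is set by the balance between activating and inhibitory receptors, many of which (the Ly49, NKG2 and NKR-P1 families) are encoded side by side in the NK gene complex. In skin they occur among macrophages, dendritic cells, T cells and other innate lymphocytes.

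The libraries labelled ZT6 replicate 2 and ZT10 replicate 3 shared 89 cell barcodes, whereas no other pair shared more than 4. Counting the entries with these barcodes in both libraries together, 89 were within the limits on genes and mitochondrial UMIs. Each of those libraries held 1 NK cell, and neither NK cell had a barcode shared by that pair. A result on cell numbers below is therefore given with and without them. Neither entered the fits across genes, which used libraries with at least 3 NK cells.

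The genes that chose the cells are described first, with no test. Gzma, a granule protease, was the most abundant, with a UMI in 68 of the 79 cells, a median of 29 UMIs per cell and a highest value of 227. Nkg7, a granule membrane protein required by the rule, had a median of 20 UMIs. Klrb1c, which encodes the NK1.1 antigen, was seen in 77 cells, Klre1, a lectin-like receptor, in 76, Ncr1, the activating receptor NKp46, in 71, and Prf1, perforin, in 70. All 5 genes were present in 57 cells, 4 in 13 cells, 3 in 7 cells and 2 in 2 cells. In fibroblasts, which should lack these genes and have a higher median depth (22132 against 7057 UMIs), the share of cells with a UMI was 0.132% for Gzma and 0% for Ncr1. Cd3d, not used to choose the NK cells, had a UMI in 3 of them (3.80%). Its share in T cells is set by their own rule.

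Around the boundary of the rule, 5 cells had Nkg7 and only 1 of the 5 genes, 2 cells had at least 2 of the genes but no Nkg7, and 1 cell also had a UMI of Pdgfra. A further 14 cells had the NK genes together with a UMI of Cd3e or Cd3g. Those 14 had a median of 6088.5 UMIs, near that of the NK cells, and 7 of them had a UMI of Ncr1. The 2 NK cells just inside, with 2 of the 5 genes, held 4633 and 9318 UMIs.

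The region upstream of these genes is shown because they define the cells. That they occur together follows from the rule, and the motif shares are a description of the 6 chosen genes. The RefSeq promoter table on GRCm38.p6 matched all 6 genes that the rule required to be present, and 250 bases before the start were searched on both strands for the RUNX motif TGTGGT, the T-box motif AGGTGT, the ETS motif ACTTCC and the STAT motif TTCCAGGAA. RUNX and T-box factors are known regulators of cytotoxic lymphocyte genes. TGTGGT occurred upstream of all 6 genes, against 15.9% of the 27025 genes in the table. AGGTGT occurred at 3 of the 6 (Gzma, Prf1 and Nkg7) against 13.6% of genes, ACTTCC at 2 against 22.2%, and TTCCAGGAA at 1 against 0.773%. Of 17 listed NK receptor genes in the table, TGTGGT was upstream of 7 and AGGTGT of 0. Klre1 has a second listed start, without TGTGGT in its window. Below are the windows of 4 genes, read on the strand of the gene from 5′ to 3′ and ending at the base before the start, with TGTGGT or its reverse complement ACCACA in capitals: Ncr1 (chr7:4337474-4337723, plus strand), Klrb1c (chr6:128788642-128788891, minus strand), Gzma (chr13:113100982-113101231, minus strand) and Prf1 (chr10:61297586-61297835, plus strand).
Ncr1: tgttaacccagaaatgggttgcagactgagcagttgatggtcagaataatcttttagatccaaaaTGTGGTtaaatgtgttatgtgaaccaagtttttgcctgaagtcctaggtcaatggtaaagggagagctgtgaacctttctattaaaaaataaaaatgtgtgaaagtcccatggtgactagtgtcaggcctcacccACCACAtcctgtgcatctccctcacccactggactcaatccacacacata
Klrb1c: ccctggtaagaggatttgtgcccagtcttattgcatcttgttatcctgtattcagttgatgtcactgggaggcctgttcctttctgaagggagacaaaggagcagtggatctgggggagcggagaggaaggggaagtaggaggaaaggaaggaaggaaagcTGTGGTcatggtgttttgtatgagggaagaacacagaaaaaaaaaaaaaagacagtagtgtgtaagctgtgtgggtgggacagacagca
Gzma: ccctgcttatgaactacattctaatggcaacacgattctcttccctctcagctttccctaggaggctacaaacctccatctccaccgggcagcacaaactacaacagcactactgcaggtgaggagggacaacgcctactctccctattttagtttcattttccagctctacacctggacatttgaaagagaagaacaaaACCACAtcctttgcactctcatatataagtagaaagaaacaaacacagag
Prf1: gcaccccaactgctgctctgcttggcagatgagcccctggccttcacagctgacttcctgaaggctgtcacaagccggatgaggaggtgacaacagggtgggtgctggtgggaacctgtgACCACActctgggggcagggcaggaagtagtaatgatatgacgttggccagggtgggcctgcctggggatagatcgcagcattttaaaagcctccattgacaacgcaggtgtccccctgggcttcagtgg
The motif begins 185 and 50 bases before the start in Ncr1, 89 in Klrb1c, 50 in Gzma and 130 in Prf1. A match is a run of letters and was not tested as a binding site.

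The label was then checked against genes that the rule did not use. Shares were compared after each cell had been thinned to 2000 UMIs, which left 74 NK cells and 92 T cells, since detection rises with depth. Tyrobp and Fcer1g, the adaptor chains of NK activating receptors, had a UMI in 95.9% and 94.6% of NK cells (78 of the 79 cells for both without thinning) and in 2.17% and 6.52% of T cells. In thinned macrophages the shares were 79.0% and 90.9%, so these 2 genes set NK cells apart from T cells but not from macrophages. Il2rb, the receptor chain shared by interleukins 2 and 15, was seen in 89.2% of NK cells and in all 79 before thinning. Eomes, a T-box factor of conventional NK cells, had a UMI in 44.6% of thinned NK cells (58 of 79 before thinning) against 1.09% of T cells, and its partner Tbx21 in 25.7% against 10.9%. Among all 79 cells 34 had a UMI of both T-box genes, 24 of Eomes alone, 11 of Tbx21 alone and 10 of neither. These markers were present, as the label requires, but they do not divide NK cells from type 1 innate lymphoid cells cell by cell at this depth.

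**Figure D1:**
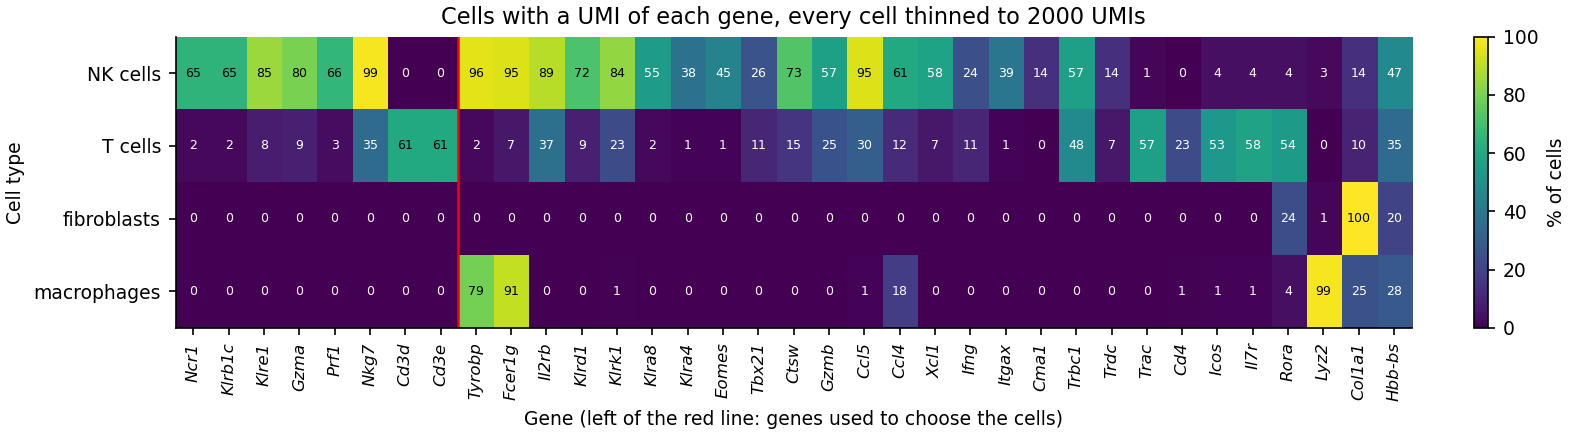
Share of cells with a UMI of each gene (% of cells, colour and printed number) in NK cells, T cells, fibroblasts and macrophages after thinning every cell to 2000 UMIs. Genes left of the red line chose the NK or the T cells. Tyrobp had a UMI in 95.9% of the NK cells and 2.17% of the T cells, and Trac in 1.35% and 56.5%.

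Markers of other cell types were low. All 6 B and plasma cell markers, 6 of 7 neutrophil markers and 6 of 9 mast cell and basophil markers had 0 UMIs over the 79 cells, where 3 UMIs would be 4.29 CPM (the UMIs of a gene scaled to a common total). The 9 macrophage markers beyond C1qa summed to 47.2 CPM in NK cells and 39101 CPM in macrophages, with Apoe the most abundant at 24.3 CPM and Csf1r and Cd68 at 0. The 9 dendritic cell markers summed to 261.9 CPM, of which Itgax, the integrin CD11c that NK cells also carry, gave 203.2 CPM, while Flt3, Xcr1, Clec9a and Cd209a were at 0. The 5 fibroblast markers summed to 329.1 CPM, led by Col3a1 at 113.04 CPM, and they reached 79492 CPM in fibroblasts. Hbb-bs, a haemoglobin gene of red cells, had a UMI in 63 of the 79 NK cells and 61 of the 94 T cells. The part of free RNA or of other cells in these values was not tested.

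Of the mast cell list, Cma1, Kit and Cpa3 had UMIs (38, 16 and 1). Cma1, a mast cell chymase, had a UMI in 22 of the 79 NK cells (54.4 CPM), spread over all 10 libraries with at least 3 NK cells, where its lowest level was 28.9, its median 49.2 and its highest 283.4 CPM. It was at 0 in all 12 libraries with at least 3 T cells. After thinning it was seen in 13.5% of NK cells, 0.0248% of fibroblasts and 0.241% of macrophages. All 22 cells also had Gzma. The defining mast cell genes Mcpt4, Tpsb2 and Ms4a2 were at 0 in the NK cells.

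The T cell receptor loci separated by gene. Trac, the alpha constant region, had 5 UMIs in 3 NK cells, and Cd4, Cd8a, Cd8b1, Cd5, Themis and Foxp3 had none. Trbc1, a beta constant region, had a UMI in 69 of the 79 cells (465.0 CPM, against 516.0 CPM in T cells), Trbc2 in 28 and Trdc, the delta constant region, in 33, whereas of the gamma constant regions Tcrg-C1 and Tcrg-C2 were at 0 and Tcrg-C4 had 6 UMIs in 4 cells (8.59 CPM). Of the 33 cells with Trdc, 30 had no UMI of Trac. The 3' counts do not show whether a constant-region transcript comes from a rearranged locus. Of 12 ILC2 and ILC3 markers, 8 were at 0, including Il1rl1, Il13 and Il22, and Gata3 gave 97.3 of the 144.5 CPM summed over the list.

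Next the number of NK cells across the day was compared. The share of NK cells among cells within the limits was 0.511% ± 0.402 at ZT2, 0.417% ± 0.0968 at ZT6, 0.607% ± 0.422 at ZT10, 0.641% ± 0.237 at ZT14, 0.189% ± 0.222 at ZT18 and 0.288% ± 0.284 at ZT22 (mean and SD, n = 3 mice each). The libraries held 6, 1 and 9 NK cells at ZT2, 5, 1 and 4 at ZT6, 5, 13 and 1 at ZT10, 3, 8 and 10 at ZT14, 0, 2 and 2 at ZT18, and 1, 7 and 1 at ZT22, in the order of the replicates. The ranges overlapped between all pairs of zeitgeber times other than ZT14 (0.480% to 0.913%) and ZT18 (0% to 0.434%), and counts this small leave wide intervals. In ZT10 replicate 2, the highest library, 13 of 1309 cells gave 0.993% (exact 95% binomial interval 0.530% to 1.69%, counting error only). In ZT18 replicate 1, 0 of 177 cells allows a share of up to 1.69% when 3 counts are taken as the limit, and the exact 95% binomial interval reaches 2.06%.

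A 24 h cosine fitted to the 18 shares had an amplitude of 0.168 percentage points and a fitted peak at 9.36 h, and its permutation p (two-sided, times permuted over libraries) was 0.256. Without both libraries that share barcodes the amplitude was 0.258 percentage points (permutation p = 0.0707, n = 16). A 24 h rhythm in the share was thus not detectable with 79 cells. With cells that have a UMI of Ptprc as the denominator, the permutation p was 0.225.

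The number of NK cells was also set against that of T cells. The log2 ratio of NK to T cells, with 0.5 added to both counts, was -1.07 ± 0.142 at ZT2, 0.0965 ± 1.59 at ZT6, -0.0767 ± 0.625 at ZT10, 0.589 ± 0.646 at ZT14, -0.243 ± 0.343 at ZT18 and -0.815 ± 0.375 at ZT22 (mean and SD, n = 3 mice each, but 2 at ZT18). ZT18 replicate 1 had neither an NK nor a T cell and so has no ratio. It entered the cosine as 0, the value that the added 0.5 gives, and without it the permutation p was 0.0552. In words, all libraries at ZT2 and ZT22 held fewer NK than T cells, and no library at ZT14 did. The cosine had an amplitude of 0.694 on the log2 scale and a fitted peak at 12.4 h (permutation p = 0.0434, adjusted to 0.0868 over the 2 tests of cell numbers). With permutations kept within replicate number (the replicate block, 1 number per collection day), the p was 0.0648. It exceeded 0.05 without any 1 of 12 libraries, namely each replicate of ZT2, ZT18 and ZT22, ZT10 replicate 2, and ZT14 replicates 1 and 2 (permutation p up to 0.100, without ZT14 replicate 2), and it was 0.462 when cells with a UMI of Cd3d or C1qa were left out. Without both libraries that share barcodes it was 0.00486. The ratio therefore did not pass the threshold once adjusted, and it is a description of 79 and 94 cells.

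**Figure D2:**
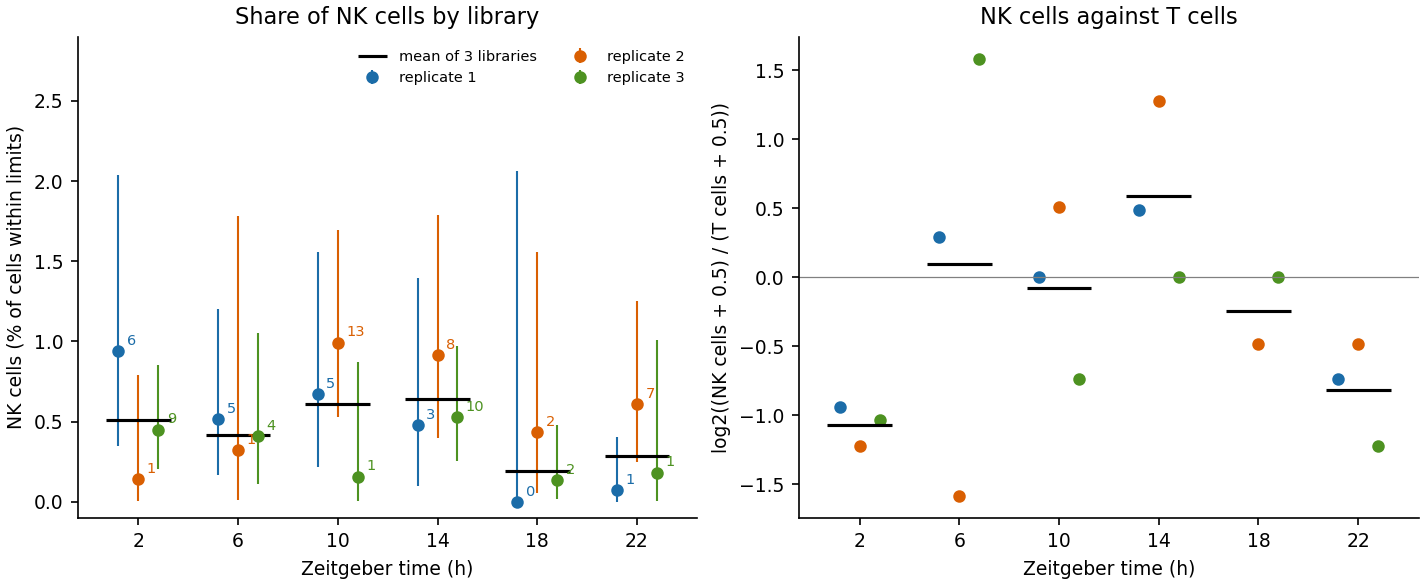
Left, NK cells as a percentage of cells within the limits in each library against zeitgeber time (h), with exact 95% binomial intervals, the number of NK cells beside each point and the mean of 3 libraries as a black line. Right, log2 ratio of NK to T cells (0.5 added to both) in the same libraries, leaving out ZT18 replicate 1, which had no cell of either kind, with the mean at each time as a black line. The mean share lies between 0.189% at ZT18 and 0.641% at ZT14, and the points of ZT14 and ZT18 do not overlap.

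The NK cells were then compared with the T cells of the same mice, gene by gene, in the 8 libraries with at least 3 cells of both kinds (63 NK cells with 604380 UMIs and 72 T cells with 594618 UMIs). UMIs were summed per library and type. Median depth per cell did not differ detectably over these libraries (mean log2 difference 0.327 ± 0.832 SD, exact permutation p = 0.344, two-sided, higher in NK cells in 5 of 8). Of 990 genes tested outside the genes of the rule, 194 passed an adjusted p of 0.05 (edgeR quasi-likelihood test, Benjamini-Hochberg), which is 19.6% of those tested. NK cells were higher for 106 (10.7%) and T cells for 88 (8.89%), and the median log2 fold over all 990 was 0.0543. Genes that are expressed together with those of the rule follow from the choice of cells, so these calls describe how the 2 chosen populations differ and are not independent evidence of their identity. Genes low in both passed the filter only where 1 of the types was high, so the counts below are given as counts of the tested members of each list.

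Nearly all tested NK receptors were higher in NK cells. Of 22 listed genes in the files 9 were tested, 8 were higher in NK cells, none was lower, and the median log2 fold of the 9 was 3.67. Klra8, an activating Ly49 receptor that recognises a cytomegalovirus protein, had 524 UMIs in NK cells and 1 in T cells, with a lowest library of 277, a median of 921 and a highest of 2039 CPM in NK cells and 13.6 CPM as the highest T cell value (log2 fold 7.90 ± 0.41 SE, adjusted p = 2.35e-08). With 1 UMI in the T cells, the ratio of the pooled levels was 515.5, with a 95% counting interval of 92.1 to 20401. Klra4, another Ly49 receptor, had 458 UMIs in NK cells and none in T cells of these libraries, at least 150.2-fold higher with a floor of 3 UMIs over the T cells. Klri2 had 199 UMIs against 0, at least 65.3-fold higher. These ratios hold for the 8 libraries. Over all 94 T cells, Klra8 had 11 UMIs in 2 cells (14.5 CPM, against 872.8 CPM in all 79 NK cells), Klra4 11 UMIs in 1 cell (14.5 against 759.8 CPM) and Klri2 3 UMIs in 1 cell (3.95 against 313.4 CPM). In the 8 libraries the NK and T values of these 3 genes did not overlap. Such a separation was seen for 63 of the 990 genes (6.36%), with NK cells higher in 4.04% and T cells higher in 2.32%.

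The lectin receptors with known partners followed. Klrd1 (CD94), the common subunit of the CD94-NKG2 receptors, lay between 326.2 and 1461 CPM in NK cells and between 0 and 228.7 CPM in T cells (log2 fold 3.67 ± 0.43 SE, adjusted p = 3.12e-05). Klrk1, the activating receptor NKG2D, was higher with a log2 fold of 2.44 ± 0.32 SE, Klrc1, the inhibitory NKG2A, with 2.23 ± 0.31, and Klrc2, the activating NKG2C, with 3.45 ± 0.48. Against the few T cells with a UMI of Cd8a or Cd8b1, the calls of Klrd1, Klrk1 and Klrc1 were lost, with log2 folds of 1.99, 2.00 and 1.43 (adjusted p = 0.0774, 0.210 and 0.431). Cd226, an adhesion and activating receptor that T cells share, had a log2 fold of 0.29 ± 0.41 (adjusted p = 0.664). The tested receptors that lie on chromosome 6 did so within 128609227 to 130386874 (GRCm38, GENCODE vM21), the span from Klrb1a to Klra1 that holds the NK gene complex. Of 10 genes tested there outside the rule, the 8 Klr genes were higher in NK cells, and Cd69 and Clec2d did not pass.

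Ly49 receptor genes were detected in part of the cells each. Of the 79 NK cells, 47 had a UMI of Klra8, 52 of Klra7, 47 of Klra9, 32 of Klra4, 27 of Klra3, 9 of Klra1 and 1 of Klra5. Counting these 7 genes per cell, 6 cells had none, 7 had 1, 19 had 2, 23 had 3, 19 had 4 and 5 had 5, and no cell had more. Klra4 and Klra8 were both present in 23 cells, Klra8 alone in 24, Klra4 alone in 9 and neither in 23. After thinning to 2000 UMIs, 11 of 74 cells had none and 22 had 3, and the part of depth in the rest was not tested. The family has near copies: of the 100-base windows in the annotated transcripts of Klra8, 14.4% also occur in another Klr gene, against 4.07% for Klra9, 1.83% for Klra7, 1.78% for Klra3 and 0% for Klra4. For Klra8, Klra9, Klra7 and Klra3 the most windows were shared with Klra14-ps, Klra11-ps, Klra13-ps and Klra10, which are not among the 7 genes counted. Reads from such windows cannot be assigned to 1 gene, and the counts of these genes are uncertain to that extent. The windows cover whole transcripts, whereas the counts come from 3' reads.

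For the inhibitory and activating NKG2 partners, 32 cells had a UMI of both Klrc1 and Klrc2, 10 of Klrc1 alone, 31 of Klrc2 alone and 6 of neither. Klrc1 shares 14.6% of its windows with another gene of the family, most with Klrc2. The NKR-P1 genes Klrb1a, Klrb1b and Klrb1f were seen in 37, 41 and 57 cells, and Klrg1, a receptor of mature NK cells, in 22.

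**Figure D3:**
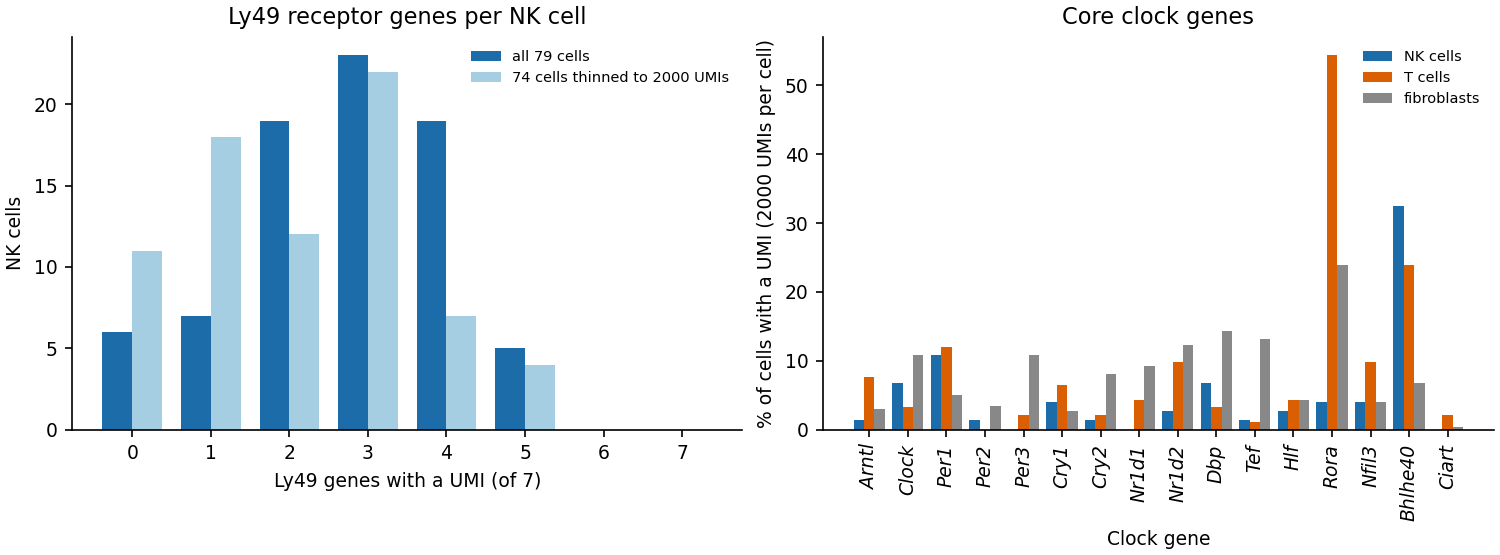
Left, number of NK cells by how many of 7 Ly49 genes had a UMI, for all 79 cells and for 74 cells thinned to 2000 UMIs. Right, percentage of thinned NK cells, T cells and fibroblasts with a UMI of each clock gene; Rora was seen in 4.05% of NK cells and 54.3% of T cells.

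Signalling genes followed the receptors. Tyrobp (DAP12) had a lowest library of 1364 CPM, a median of 2591 and a highest of 3480 in NK cells, and 0, 0 and 425 CPM in T cells (log2 fold 6.68 ± 0.78 SE, adjusted p = 3.12e-05). Fcer1g, the Fc receptor gamma chain, lay between 1620 and 2401 CPM against 0 to 817 CPM (log2 fold 5.18 ± 0.68). Both were separated in all libraries. Of the 6 tested members of the signalling list these 2 were higher. Lck, Hcst and Sh2d2a did not pass, with log2 folds of 0.18, 0.15 and 0.48. Members of the list under the filter were Syk, a kinase downstream of Fc receptor gamma chain and DAP12, at 88.7 CPM over all NK cells against 2.63 CPM in T cells, and Lat, the T cell adaptor, at 28.6 against 255.4 CPM.

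Effector genes divided. Among 4 tested granule and death effector genes, Serpinb9, the inhibitor that protects a killer cell from its own granzyme B, was higher in NK cells (log2 fold 3.64 ± 0.37 SE, adjusted p = 8.60e-06), as was Ctsw, a cathepsin of cytotoxic cells (2.21 ± 0.33, adjusted p = 2.70e-04). Srgn, the granule proteoglycan, was lower: it ranged from 426 to 805 CPM in NK cells and from 1279 to 2745 CPM in T cells (log2 fold -1.58 ± 0.18, adjusted p = 2.70e-05). Gzmb, granzyme B, had a log2 fold of 0.41 ± 0.36 (adjusted p = 0.446). In NK cells its libraries lay between 130.5 and 1331 CPM and in T cells between 61.7 and 1259 CPM. The groups overlapped over nearly their whole range. With the gate on thinned cells Gzmb had a larger log2 fold of 1.32 and passed (adjusted p = 0.0417). Gzmk and Gzmm, granzymes of other subsets, had 5 UMIs each over the 79 NK cells.

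Chemokines were higher as well. Of 6 tested cytokine and chemokine genes 4 were higher in NK cells, 1 was lower, and the median log2 fold was 2.48. Ccl3 and Ccl4, which recruit leukocytes, had log2 folds of 5.09 ± 0.69 SE and 3.76 ± 0.76, Xcl1, the ligand for dendritic cells with XCR1, 3.55 ± 0.91, and Ccl5 1.40 ± 0.29 (adjusted p = 3.13e-03). Ccl5 was the most abundant gene of all lists in the NK cells at 6433 CPM. Every one of the 79 cells had a UMI of Xcl1 or Ccl5, and 58 had both. Ifng, interferon gamma, lay between 37.6 and 531 CPM in NK cells and between 0 and 667 CPM in T cells (log2 fold 0.70 ± 0.57, adjusted p = 0.416). Ltb, lymphotoxin beta, was lower (log2 fold -1.75 ± 0.37). Csf2 had 0 UMIs in the NK cells.

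Cytokine receptors showed a contrast between Il2rb and Il7r. Il2rb was higher (787.6 to 1532 CPM in NK cells, 46.8 to 402.3 CPM in T cells, log2 fold 2.03 ± 0.28 SE, adjusted p = 1.07e-04), and so was Il18rap, the accessory chain of the interleukin 18 receptor (1.98 ± 0.42). Il7r, the interleukin 7 receptor of T cells and most other innate lymphoid cells, lay between 0 and 64.6 CPM in NK cells and between 217.2 and 1452 CPM in T cells (log2 fold -5.18 ± 0.51, adjusted p = 7.35e-06). Il2rg, Il18r1 and Ifngr1 did not pass.

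Among homing genes, Itgb7, an integrin chain, was lower in NK cells (log2 fold -1.29 ± 0.29 SE, adjusted p = 0.00492). Ccr2, a chemokine receptor, had a log2 fold of 1.00 ± 0.40 and did not pass (adjusted p = 0.0947), but passed with DESeq2 (0.0456), with no filter on low counts (0.0129) and without dividing NK cells (0.0408). None of 3 tested residence genes passed: Rgs2, Cd69 and Rgs1 had log2 folds of -1.21, -0.63 and -0.50. Cd69 passed without ZT2 replicate 1 (adjusted p = 0.0175) and Rgs2 in 5 alternatives (adjusted p = 0.0238 with DESeq2, 5.90e-04 with no filter on low counts, 0.0418 with no library block, 0.0431 with cells thinned before summing and 0.0241 without ZT22 replicate 2). Cxcr6, a receptor of tissue-resident lymphocytes, was seen in 5 of the 79 NK cells, Itga1, a collagen-binding integrin of type 1 innate lymphoid cells, in 8, and Itga2, the integrin of conventional NK cells, in 40. Only 1 cell had both integrins.

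**Figure D4:**
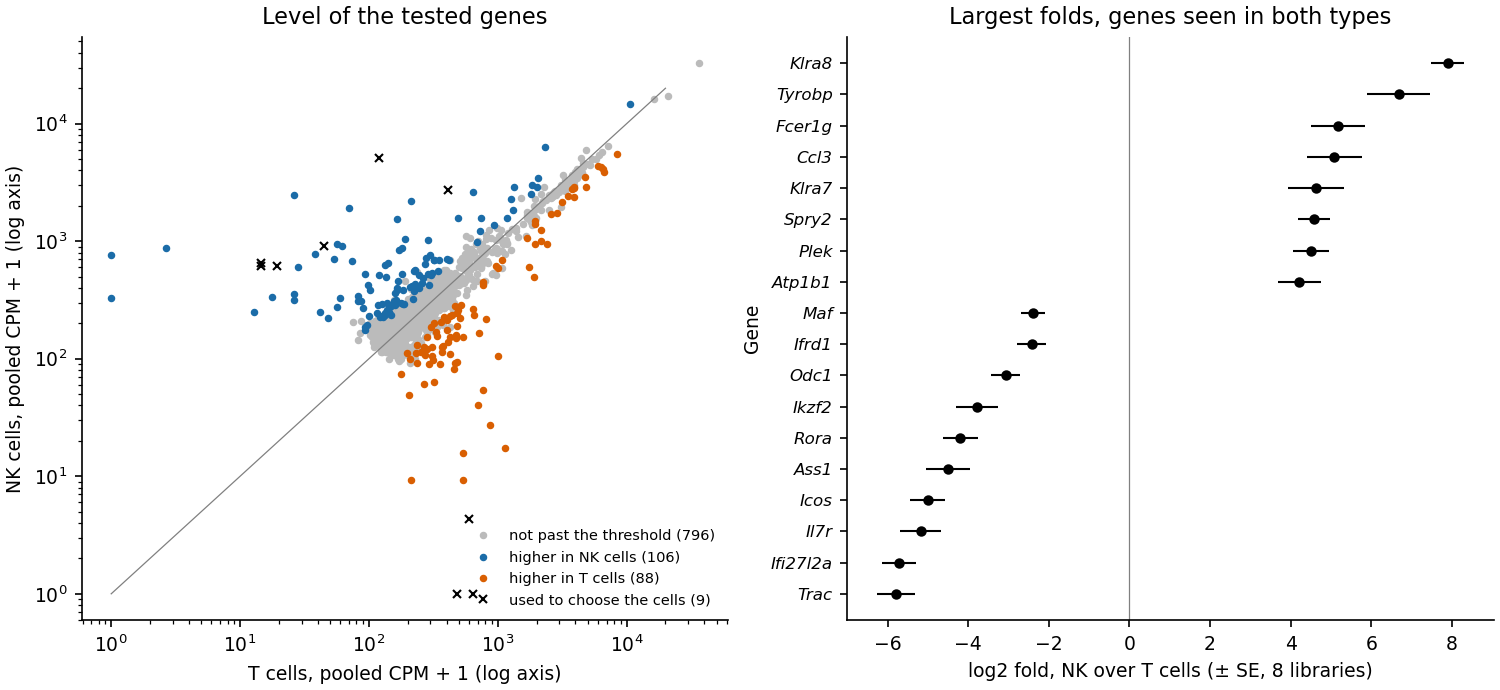
Left, level of each tested gene in NK cells against T cells (CPM pooled over 8 libraries, 1 added, log axes), coloured by the edgeR call. Right, log2 fold of NK over T cells with its SE for the genes with the largest folds that had UMIs in both types, from Klra8 at 7.90 to Trac at -5.80.

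Spry2, Plek and Atp1b1 had large folds and were not on a list. Spry2, an inhibitor of receptor tyrosine kinase signalling, was higher in NK cells in all 8 libraries (384 to 1568 CPM against 0 to 80.5 CPM, log2 fold 4.59 ± 0.40 SE, adjusted p = 2.77e-06). Plek, pleckstrin, a substrate of protein kinase C, had a log2 fold of 4.51 ± 0.44, and Atp1b1, a sodium pump subunit, 4.21 ± 0.53. From the receptor list, Klra7, a further Ly49 gene, had 4.63 ± 0.70. These complete the 10 largest folds toward NK cells, with Klra4, Klra8, Klri2, Tyrobp, Fcer1g and Ccl3.

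Toward T cells the largest folds outside the rule were Trac (-5.80 ± 0.47), Ifi27l2a (-5.72 ± 0.42), Il7r, Icos (-5.01 ± 0.44), Ass1 (-4.51 ± 0.55), Rora (-4.19 ± 0.43), Ikzf2 (-3.78 ± 0.51), Odc1 (-3.07 ± 0.36), Ifrd1 (-2.43 ± 0.36) and Maf (-2.39 ± 0.30), all in log2 with SE. Icos is a costimulatory receptor of T cells, Ass1 and Odc1 are enzymes of arginine and polyamine metabolism, and Rora, Ikzf2 (Helios) and Maf are transcription factors of T cells and helper-like innate lymphocytes. Ifi27l2a, an interferon-stimulated gene, had 10 UMIs in NK cells and 679 in T cells of these libraries. After thinning it was seen in 4.05% of NK cells, against 52.2% of T cells, 86.8% of fibroblasts and 84.2% of macrophages. Of 6 tested T cell markers 4 were lower in NK cells (Trac, Icos, Trbc2 and Cd28), while Cd27 and Trbc1 did not pass. The Cd28 call was lost with the gate on thinned cells (adjusted p = 0.268) and with at least 5 cells per library (0.0557).

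Among regulators, Runx3, a factor of cytotoxic lymphocytes, was higher (log2 fold 0.89 ± 0.25 SE, adjusted p = 0.0212) and Ikzf2 lower, while Klf2, Ikzf3 and Id2 did not pass. The Runx3 call was lost in 10 of the alternatives run, among them DESeq2 (adjusted p = 0.0724) and the fits without ZT6 replicate 1 (0.0702), ZT10 replicate 1 (0.0518), ZT10 replicate 2 (0.0746) and ZT14 replicate 3 (0.0703). Gata3 was lower in NK cells (-2.07 ± 0.52), and did not pass without dividing NK cells (adjusted p = 0.0556). Of 14 immediate early and heat shock genes, which respond to tissue digestion, 12 were tested, 2 were lower in NK cells (Junb at -1.76 ± 0.21 and Zfp36 at -0.87 ± 0.25), none was higher, and the median log2 fold was -0.26. The Zfp36 call was lost in 5 alternatives (adjusted p = 0.120 with the gate on thinned cells, 0.0902 with no filter on low counts, 0.0591 with at least 5 cells per library, 0.0581 with no library block and 0.0515 without ZT2 replicate 3). Hspa1a, not called (log2 fold -0.76), passed as lower without dividing NK cells (0.0406). Col3a1 and Hbb-bs, made by fibroblasts and red cells, had log2 folds of 0.03 and 0.00. When T cells were restricted to those with a UMI of Cd8a or Cd8b1, 19 T cells and 3 libraries remained, 20 genes passed, and 10 of the called genes on the lists or among the largest folds lost their call. Ccl5 and Junb had log2 folds of 0.39 and -0.67 (adjusted p = 0.611 for both). Beside the receptors given above, Il18rap and Ccl4 had log2 folds of 2.73 and 2.71 (0.0509 and 0.0967), and Trbc2 and Odc1 -2.16 and -2.28 (0.240 and 0.290).

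Levels within the NK cells were then followed across libraries. In the 10 libraries with at least 3 NK cells, Gzma had a lowest level of 3415 CPM, a median of 5684 and a highest of 6709. Prf1 ranged from 435.0 to 1700.2 CPM with a median of 642.4, Nkg7 from 2288 to 3804 with a median of 2821, and Klre1 from 752.8 to 1190.1 with a median of 905.2. Eomes lay between 113.3 and 555.1 CPM and Tbx21 between 44.4 and 340.04 CPM. Ccl5 ran from 2296 CPM in ZT2 replicate 1 to 10311 CPM in ZT14 replicate 3. Xcl1 and Ifng spread wider, Xcl1 from 304.5 CPM in ZT6 replicate 1 to 3915 CPM in ZT2 replicate 1, and Ifng from 36.7 to 623.4 CPM. Among the libraries with 1 or 2 NK cells, Gzma was at 0 in ZT22 replicate 1 and at 11819 CPM in ZT2 replicate 2, each from a single cell.

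**Figure D5:**
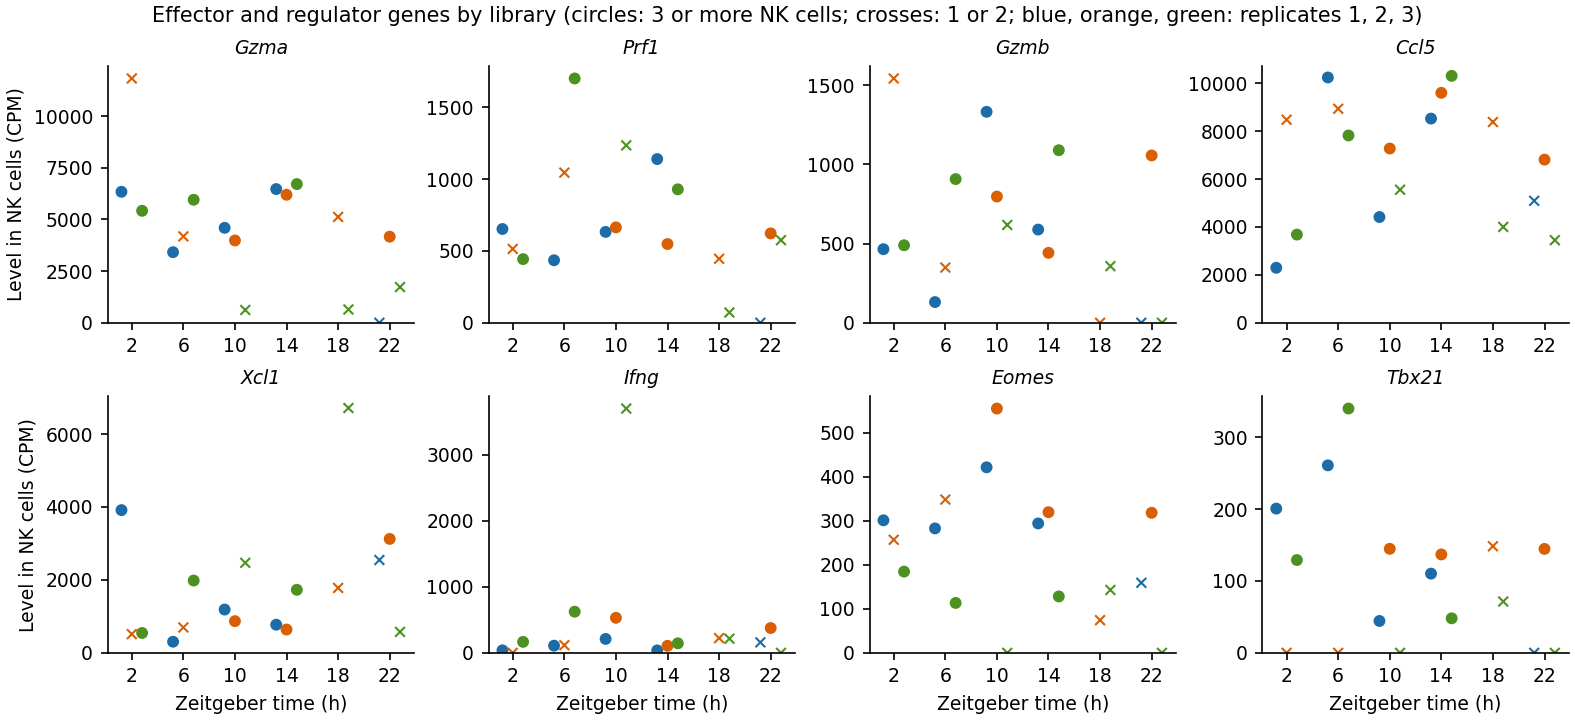
Level of 8 effector and regulator genes in the NK cells of each library (CPM) against zeitgeber time (h). Circles are libraries with at least 3 NK cells and crosses those with 1 or 2, coloured by replicate; the circles of Gzma lie between 3415 and 6709 CPM.

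No gene of the NK cells passed the edgeR test for a 24 h rhythm. The fit of a cosine and a sine term used the 10 libraries with at least 3 NK cells, of which none was from ZT18. Of 1538 genes tested 0 passed an adjusted p of 0.05 with edgeR (0%), 67 had an unadjusted p below 0.05 (4.36%), and 4 passed with DESeq2. The smallest adjusted p was 0.357. All 12 genes followed across the libraries, Gzma to Tbx21, had an adjusted p of 1.00. Each library held at most 13 NK cells.

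Core clock genes were too sparse to follow. Of 19 listed genes only Bhlhe40, an E-box repressor, passed the filter for the rhythm test (lowest library 73.5, median 294.2, highest 963.4 CPM, unadjusted p = 0.0749, adjusted p = 1.00). Over all 79 cells Arntl (Bmal1), the activator, had 5 UMIs, its partner Clock 11, Npas2 0, the repressors Per1 43, Per2 3, Per3 2, Cry1 8, Cry2 2 and Ciart 1, and the nuclear receptors Nr1d1 1, Nr1d2 7 and Rora 32. Of the output regulators Dbp had 8, Tef 9, Hlf 3 and Nfil3 50 UMIs, and of the other repressors Bhlhe40 had 195 and Bhlhe41 0. In cells thinned to 2000 UMIs, the 19 genes together gave a mean of 0.973 UMIs per NK cell, 2.85 per T cell, 1.59 per fibroblast and 1.04 per macrophage. Rora gave 751.6 of the 1474 CPM summed over the list in T cells, with a UMI in 54.3% of thinned T cells and 4.05% of thinned NK cells. Nr1d1 was seen in 0% of thinned NK cells and 9.18% of thinned fibroblasts, and Dbp in 6.76% and 14.3%. With so few UMIs, time could not be compared within the NK cells for these genes.

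Some of the NK cells had transcripts of dividing cells. A UMI of at least 2 of Mki67, Top2a, Cdk1, Birc5 and Ccnb2 was found in 11 of the 79 cells (13.9%) and in 4 of the 94 T cells (4.26%). They came from 6 libraries, 3 each from ZT2 replicate 1 and ZT10 replicate 1, 2 from ZT2 replicate 3 and 1 each from ZT10 replicate 2, ZT14 replicate 3 and ZT22 replicate 2. Their median depth was 20232 UMIs, against 6320.5 in the other 68, and detection of these genes rises with depth. Hmgb2, a chromatin protein of cycling cells, was at 5195 CPM in them and 756.3 CPM in the others, and Ccl5 at 2157 and 8299 CPM. Eomes was present in all 11 and stood at 301.4 CPM against 300.1 CPM. No test was made between these groups of cells, and in the comparison with T cells none of 3 tested cell cycle genes passed (Stmn1, Tubb5 and Hmgb2, log2 folds 1.79, 0.58 and 0.47). Stmn1 and Tubb5 passed without ZT10 replicate 2 (adjusted p = 0.00753 and 0.0262, edgeR), and Stmn1 with no filter on low counts (5.85e-04). In ZT10 replicate 2 a single dividing T cell held 66266 of the 124287 UMIs summed over the T cells. Without the dividing NK cells Hmgb2 turned to a log2 fold of -0.84, lower in NK cells (adjusted p = 0.0366), and Tubb5 did not pass.

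The 11 NK cells without a UMI of Gzma stood apart in other genes. They came from 8 libraries and had a median depth of 8252 UMIs, against 6778 in the 68 cells with Gzma. All 11 had a UMI of Klrc1, compared with 31 of 68, and 4 had Eomes, compared with 54 of 68. Klra4, Klrg1, Itgam and Cma1 were at 0 in the 11 cells and present in 32, 22, 31 and 22 of the others. Xcl1 stood at 4032 CPM against 1167 CPM, and Il7r and Cxcr6 had a UMI in 4 and 5 of the 11 and in 2 and 0 of the 68. These cells were defined by a gene of the rule and singled out after their values were seen, so the values are a description.

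Single cells carried much of some genes. A cell of ZT2 replicate 1 held 270 of the 272 Gzmc UMIs and 29 of the 37 UMIs of Itgae, the integrin CD103, and it had no Ncr1, Gzma or Eomes. A cell of ZT18 replicate 3 held the other 8 Itgae UMIs, with 10 of Il7r and 9 of Itga1, and lacked Gzma, Prf1, Eomes and Tbx21. All 18 UMIs of Areg, a growth factor of type 2 innate lymphocytes, came from a cell of ZT2 replicate 3 with 7 UMIs of Il7r and 17 each of Ncr1 and Klrb1c. Over the 79 cells Gzmc was seen in 3, Itgae in 2 and Areg in 1.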

How the data were processed

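Droplet-based single-cell RNA sequencing (Chromium Single Cell 3' v3) was carried out on dorsal dermis of 18 mice. The deposited files hold UMI counts per gene and barcode; per the labels' processing notes the authors made them with Cell Ranger 3.1.0 on mm10, without normalization. The study's limits on cells (850 to 7800 genes, under 13% mitochondrial UMIs) were applied here, and doublets were not removed. Libraries held between 4850221 and 40827442 UMIs, and 0 to 13 NK cells each, so that intervals are wide and cover counting error only.

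The NK cells, the gene lists and the tests were chosen with earlier results of these data known. Counts were summed per library and cell type. NK and T cells were compared in edgeR 4.0.16 (quasi-likelihood test, TMM, filterByExpr, library as a block, Benjamini-Hochberg over all genes) in R 4.3.3, for libraries with at least 3 cells of each kind. Rhythms were tested with cosine and sine terms of a 24 h period in libraries with at least 3 NK cells. Both scripts were checked on simulated counts. Shares and ratios were tested by 100000 permutations of the zeitgeber times in SciPy and NumPy, and the 8 depth differences by all sign flips (exact). CPM divide by all UMIs of the summed cells. DESeq2 1.42.0, other gates, filters and scalings, and leaving out each library were run as alternatives.

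Named genes were the genes of the rule, the genes of 22 lists with the largest folds, the 10 largest folds each way, the core clock list, and 12 genes followed in every library. Of the listed symbols, 4 (Cd244, Trgc1, Trgc2, Mx1) were not matched in the files, and some members of the lists are not reported here. Promoters are from RefSeq on GRCm38.p6 and gene positions from GENCODE vM21 (GRCm38). Replicate numbers mark the day of collection by the hours in the labels. NK sums with the same number and other zeitgeber times correlated in their deviations from the group means with a mean r of 0.0545 (45 pairs, 20 over 0.1), and those with other numbers with -0.0266 (90 pairs).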

Additional observations from a re-analysis of the deposited data

Results flagged for a closer look

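Barcodes outside the limits on genes and mitochondrial UMIs enter no comparison of the report, and 10 of those 7113 barcodes met the NK gate on marker genes (0.141%, exact 95% binomial interval 0.0674% to 0.258%), above the 0.0422% that a count of 0 allows. Of these, 5 had fewer than 850 genes with under 13% mitochondrial UMIs, and 5 had 13% or more (15.2% to 17.7%). They held between 1009 and 1909 UMIs, with a UMI of Ncr1 in 7, Gzma in 8 and Prf1 in 7. Their part in the share of NK cells is covered in part by the limits at 300 genes, which gave 84 NK cells. Groups of 3 mice were too small for a search for single deviating libraries.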

How the results depend on the processing

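The share of NK cells had a permutation p above 0.05 in each alternative run (0.0990 to 0.510 without 1 library, and 0.255 with the replicate block). For the ratio of NK to T cells the permutation p was 0.0535 with at least 3 of the 5 genes, 0.462 with Cd3d and C1qa at 0, 0.0233 with the gate on cells thinned to 2000 UMIs (amplitude 0.949), 0.0578 with 300 to 7800 genes, 0.0648 with the replicate block, 0.0711 without dividing NK cells (chosen after seeing the data), and 0.00419 to 0.100 without 1 library. The cause was not tested. The depth difference between NK and T cells turned to -0.0158 on the log2 scale without dividing NK cells (exact permutation p = 0.938). The 194 genes that differed between NK and T cells became 481 with no filter on low counts (12830 genes tested), 71 with at least 1 cell per library (341 tested), 42 with cells thinned to 2000 UMIs (202 tested) and 20 against T cells with Cd8a or Cd8b1 (501 tested, 3 libraries). DESeq2 gave 199, 175 of them among the 194, and leaving out 1 library gave 150 to 234. Another alternative, chosen after seeing the data, left out T cells deeper than the deepest NK cell or with over 5% haemoglobin UMIs. These were 2 cells, with 66266 UMIs in ZT10 replicate 2 and 19048 in ZT18 replicate 2. It gave 226 genes (930 tested), 179 of them among the 194. Of 43 called genes on the lists or among the largest folds, 29 kept their call in every alternative in which they were tested, and none changed sign; Hmgb2, not called, turned to a log2 fold of -0.842 without dividing NK cells. The rhythm test gave 0 genes in edgeR and stayed at 0 with the replicate block, while DESeq2 gave 4, no filter on low counts 20 (11384 tested), and leaving out 1 library 0 to 2, with 1 gene without ZT6 replicate 1 and 2 without ZT10 replicate 1. Each library held at most 13 NK cells, which limits the precision of every value here.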
